A study of Canis lupus familiaris with 9 samples.

Results

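Enzymes that make, use and break down NAD and adenosine were described across the polarization states of canine macrophages. The 10 genes were chosen by name, for their function: CD38 and BST1, NAMPT, NAPRT and NADK, ENTPD1 and NT5E, and ADA, ADK and PNP. Of these, 9 had a row among the 12696 protein coding genes of the table used here, and NT5E was not analysed here. The macrophages were grown from adherent blood monocytes of spayed female beagles in good health, aged about 2 years, with recombinant human M-CSF at 10 ng/mL for 7 days in every group. M2 macrophages were then given canine IL-13 with IL-4 for 24 h, each at 20 ng/mL, M1 macrophages canine IFN-γ at 20 ng/mL for 24 h, and M0 (resting) macrophages no polarizing cytokine. There were 3 samples in each of the 3 groups, grown from 3 dogs according to the methods of the study.

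NAD carries electrons in metabolism and is also consumed as a substrate. In most tissues it is rebuilt from nicotinamide through NAMPT, or from nicotinic acid through NAPRT, and NADK phosphorylates it to NADP. CD38 and its relative BST1 are surface enzymes that split NAD into nicotinamide and ADP-ribose products, and CD38 is known in human and murine macrophages as a gene of inflammatory activation. ATP and ADP released from cells are cut to AMP by ENTPD1 (CD39), and AMP is cut to adenosine by NT5E (CD73). Adenosine signals through its own receptors until it is deaminated to inosine by ADA or phosphorylated to AMP by ADK, and PNP splits inosine and guanosine further.

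Every level given here is the authors' mean normalized count of a group, made with DESeq2 from reads counted per gene and not corrected for gene length, so that levels were compared between groups and not between genes. The values hold no spread between samples. No difference could therefore be set against replicate error, no test was run, and the words higher and lower refer only to these means. The depth of each sample is unknown. A gene was counted as apart in a comparison when its group means differed by at least 2-fold and the higher mean was at least 50. The table held 9 of 10 listed macrophage and monocyte markers, all with a mean of at least 50 in every group, and they summed to 221314 normalized counts in M2, 101194 in M1 and 258780 in M0. None of the 5 listed fibroblast markers had a row in the table. IDO1, a gene of the IFN-γ response, had a mean of 348 in M2, 104559 in M1 and 159 in M0, and FCER2, a gene of the IL-4 response, had 3735 in M2, 43.3 in M1 and 51.5 in M0.

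Among CD38, BST1, NAMPT, NAPRT and NADK, CD38 differed most between the polarized states. Its mean was 2803 normalized counts in M2, 8569 in M1 and 5009 in M0. The resting level lay between both polarized levels, with IFN-γ above it and IL-4 with IL-13 below it. CD38 was 1.71-fold higher in M1 than in M0 (log2 ratio of 0.77), and its mean in M2 was 56.0% of that in M0 (log2 ratio of -0.84). Against M1, the M2 mean was 3.06-fold lower, a log2 ratio of -1.61, and 2.76% of the 10737 genes compared had a ratio as low or lower. In cultures sequenced in bulk, fewer cells carrying a transcript and less transcript per cell cannot be told apart.

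CD38 is also carried by lymphocytes, whose markers were looked at beside it. The 5 listed T and NK cell markers in the table summed to 1278 normalized counts in M2, 5253 in M1 and 1562 in M0. Most of that sum was CD2, with a mean of 919 in M2, 5032 in M1 and 1253 in M0, the same order of groups as CD38. The T cell receptor chain CD3E had 162 in M2, 88.8 in M1 and 92.8 in M0, with its highest mean in M2. CD3D had 33.7 in M2, 14.7 in M1 and 18.2 in M0. CD3G had 37.9 in M2, 21.6 in M1 and 25.2 in M0, both also highest in M2. CD5 was highest in M0, with 125 in M2, 95.5 in M1 and 174 in M0. The 5 B cell markers used were all in the table and summed to 12271 in M2, 10282 in M1 and 10818 in M0, of which CD79A alone made 12039 in M2, 9856 in M1 and 10511 in M0. CD22, another of the B cell markers, had 108 in M2, 356 in M1 and 234 in M0, with log2 ratios of 0.61 in M1 over M0 and -1.11 in M2 over M0, the order of CD38 again. The other B cell markers were low and highest in M2. CD79B had 79.6 in M2, 48.2 in M1 and 45.7 in M0. MS4A1 had 18.2 in M2, 14.4 in M1 and 17.2 in M0, and PAX5 had 25.9 in M2, 6.56 in M1 and 9.91 in M0. The markers of each list thus differed among themselves in order. The part of such cells in the levels of CD38 was not tested.

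BST1, the second enzyme of this family, did not share the pattern. Its mean was 259 normalized counts in M2, 223 in M1 and 194 in M0. All groups lay within 1.33-fold of each other, and 53.4% of the 10902 genes with a mean of at least 50 in some group spanned as wide a range. The M2 mean of BST1 was above that of M1 and the M2 mean of CD38 below it, so that CD38 relative to BST1 was 3.55-fold lower in M2 than in M1. The genes are immediate neighbours among the protein coding genes of the RefSeq annotation of assembly UU_Cfam_GSD_1.0.

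**Figure D1:**
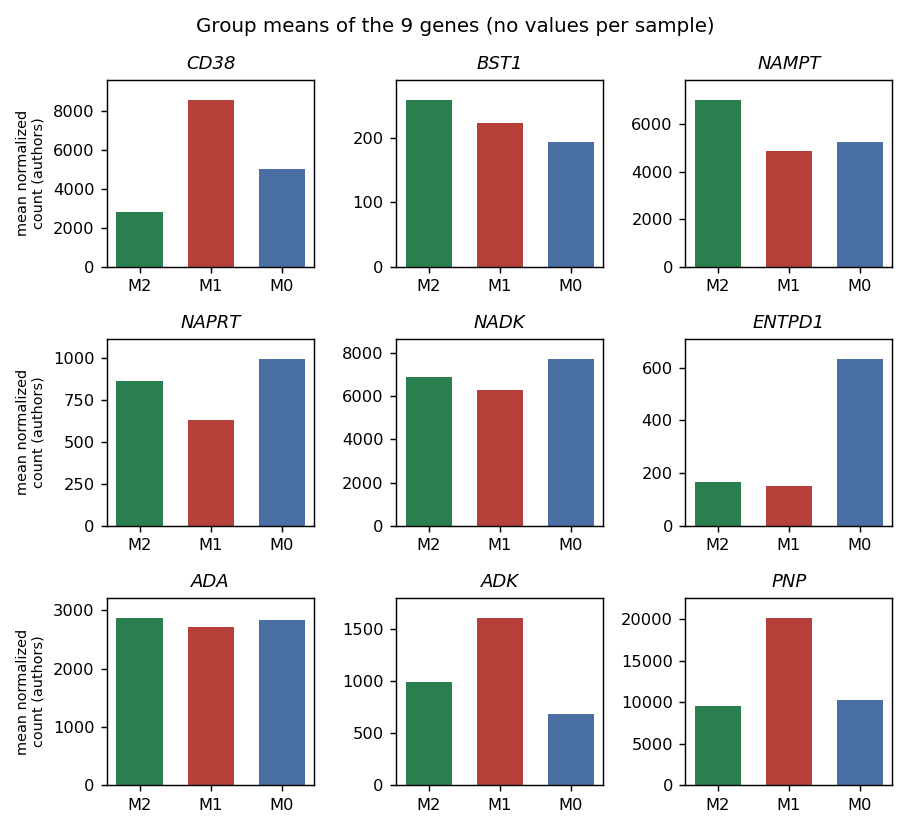
The authors' mean normalized count (vertical axes, each from 0 and on its own scale) of the 9 genes in M2, M1 and M0 macrophages, 1 bar per group and no error bars, since no values per sample were used. CD38, ADK and PNP stand highest in M1, ENTPD1 stands highest in M0, and the 3 bars of ADA are almost level.

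Among the genes that build NAD, NAMPT, the rate-limiting enzyme of nicotinamide salvage, was highest in M2. Its mean was 7043 normalized counts in M2, 4873 in M1 and 5248 in M0. The M2 mean was 1.34-fold that of M0 (log2 ratio of 0.42), a ratio that 10.4% of the 10787 genes compared reached or passed, while M1 and M0 differed by a log2 ratio of -0.11. NAPRT, which starts the route from nicotinic acid, had 862 in M2, 626 in M1 and 992 in M0. Both polarized groups lay below the resting one, M1 by more, with a log2 ratio of -0.66 in M1 over M0 and -0.20 in M2 over M0. NADK, the NAD kinase, had 6890 in M2, 6283 in M1 and 7721 in M0, and its 3 means lay within 1.23-fold of each other.

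None of these 3 genes was 2-fold apart in any comparison. Their means were all lower in M1 than in M0, by log2 ratios between -0.66 and -0.11. Set against salvage, CD38 was 1.84-fold higher relative to NAMPT in M1 than in M0, and 2.398-fold lower relative to NAMPT in M2 than in M0. Relative to NAPRT, CD38 was 2.71-fold higher in M1 than in M0. A ratio of this kind between 2 genes, compared across groups, does not depend on their lengths, and the pairs of genes were chosen after the values were seen.

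ENTPD1, the surface enzyme that opens the breakdown of extracellular ATP, was lower in both polarized groups. Its mean was 167 normalized counts in M2, 151 in M1 and 633 in M0. The polarized means lay close together, with a log2 ratio of 0.15 in M2 over M1, and both were far below the resting mean. ENTPD1 was 4.19-fold lower in M1 than in M0 (log2 ratio of -2.07) and 3.78-fold lower in M2 than in M0 (log2 ratio of -1.92). In M1 over M0, 2.23% of 10790 genes had a ratio as low or lower, and in M2 over M0 0.816% of 10787 genes did. These comparisons share the M0 samples, so their likeness was not counted as repeated evidence. A mean at least 2-fold lower in M1 and in M2 than in M0 was found for 208 of 10902 genes, which is 1.91%, a count made after the values of ENTPD1 were seen. The macrophage marker sums given above were also lower in M1 and in M2 than in M0. Of the 9 markers, 7 had a lower mean in M1 than in M0, and AIF1 and MERTK a higher one, with log2 ratios of 0.20 and 0.91. In M2, 8 had a lower mean than in M0. MRC1 had a higher one, with 33893 in M2 against 7046 in M0 (log2 ratio of 2.27). The 3 neutrophil markers in the table, of 5 listed, summed to 184 in M2, 544 in M1 and 969 in M0. Of these, S100A12 had 23.0 in M2, 10.2 in M1 and 230 in M0, CSF3R had 92.9 in M2, 376 in M1 and 664 in M0, and LTF was highest in M1, with 68.5 in M2, 159 in M1 and 74.7 in M0. The part of either list in the levels of ENTPD1 was not tested.

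The enzymes that remove adenosine, ADA and ADK, differed from each other, as did PNP, which acts on inosine and guanosine. ADA, adenosine deaminase, had means of 2870 normalized counts in M2, 2718 in M1 and 2834 in M0. The 3 groups lay within 1.06-fold, and 96.8% of the 10902 genes spanned as wide a range or wider. ADA was the most even of the 9 genes. The direction of its log2 ratio in M2 over M0, 0.02, turned with either rescaling of the means, so no direction is given.

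ADK, adenosine kinase, which returns adenosine to the AMP pool, had a mean of 987 in M2, 1605 in M1 and 677 in M0. Both polarized groups stood above the resting one. The M1 mean was 2.37-fold that of M0 (log2 ratio of 1.24), and 3.81% of 10790 genes reached or passed that ratio. The M2 mean was 1.46-fold that of M0 (log2 ratio of 0.54), and the M2 over M1 log2 ratio was -0.70.

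PNP, purine nucleoside phosphorylase, had a mean of 9490 in M2, 20167 in M1 and 10245 in M0. M1 stood apart from the other groups, which were near each other. In M1 over M0 its ratio was 1.97-fold (log2 ratio of 0.98), just short of the 2-fold limit. In M2 over M1 it was 2.13-fold lower (log2 ratio of -1.09), just past the limit. PNP relative to ADA was 2.05-fold higher in M1 than in M0. ADK relative to ENTPD1 was 9.94-fold higher in M1 than in M0 and 5.51-fold higher in M2 than in M0. The shift in M1 over M0 was the widest among the pairs computed. ADK had the highest and ENTPD1 the lowest of the 9 ratios in both comparisons, so the width followed from the choice of this pair.

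**Figure D2:**
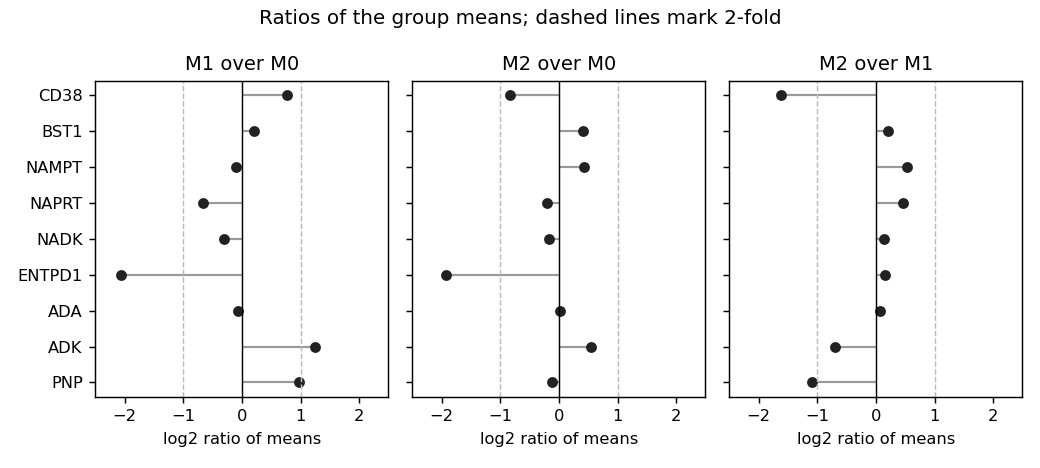
The log2 ratio of the authors' group means (horizontal axes) of each of the 9 genes in M1 over M0, M2 over M0 and M2 over M1, 1 point per gene, with dashed lines at 2-fold. ENTPD1 lies beyond the lower line in both comparisons with M0, at -2.07 and -1.92, and CD38 lies furthest left in M2 over M1, at -1.61.

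Counted over the 9 genes, 1 was at least 2-fold higher in M1 than in M0 (ADK), 1 was at least 2-fold lower (ENTPD1) and 7 were within 2-fold. Over all 10790 genes compared, 5.56% were at least 2-fold higher and 8.77% at least 2-fold lower. In M2 over M0, 0 of the 9 were at least 2-fold higher and 1 was lower (ENTPD1), against 2.99% and 3.49% of 10787 genes. In M2 over M1, 0 were higher and 2 lower (CD38 and PNP), against 7.0% and 5.72% of 10737 genes. Each of these shares corresponds to less than 1 gene in 9, and counts this small do not set the 9 genes apart from the background.

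The ratios of the 9 genes were larger in size than those over all genes, at the median. The genes were chosen with earlier results of these data known, so the difference was not read as a trait of the set. The median size of the log2 ratio over the 9 genes was 0.66 in M1 over M0, 0.42 in M2 over M0 and 0.46 in M2 over M1, against 0.35, 0.20 and 0.28 over all genes compared. The signed medians were near 0, at -0.06, -0.11 and 0.13, since the genes did not share a direction. From the highest to the lowest group, the 9 genes spanned a median of 1.58-fold, against 1.36-fold over the 10902 genes.

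**Figure D3:**
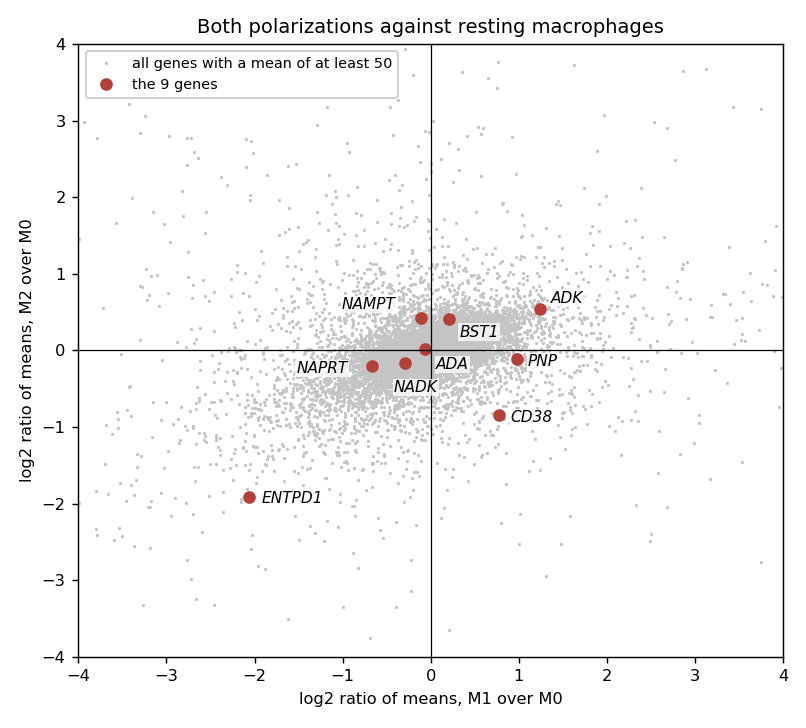
The log2 ratio of the authors' means in M1 over M0 (horizontal axis) and in M2 over M0 (vertical axis) for 10902 genes with a mean of at least 50 in some group (grey, of which 87 lie beyond the axes) and the 9 genes (red). CD38 lies at the lower right, at 0.77 and -0.84, ENTPD1 at the lower left, at -2.07 and -1.92, and ADK at the upper right, at 1.24 and 0.54.

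The place of CD38 in that plane, above rest in M1 and below it in M2, was an uncommon one over all genes. A mean at least 1.5-fold higher in M1 and at least 1.5-fold lower in M2 than in M0 was found for 106 of 10902 genes (0.972%), a count made after the value of CD38 was seen. Among the pathway genes described below, P2RY14, P2RY13, PANX1 and SAMHD1 also met both limits. Their log2 ratios were 1.61 or more in M1 over M0 and -0.68 or less in M2 over M0. Over the 3 groups, the 5 genes nearest to CD38 by the distance between their pairs of log2 ratios, out of 9704 named genes, were IRS2, SLC11A1, PRUNE2, STOM and CFAP94. IRS2, an adaptor of the insulin and IL-4 receptors, lay 0.05 away, with means of 454 in M2, 1454 in M1 and 839 in M0. SLC11A1, the phagosomal metal transporter NRAMP1, lay 0.08 away, with means of 23890 in M2, 68227 in M1 and 42186 in M0. PRUNE2, STOM (the membrane protein stomatin) and CFAP94 lay between 0.09 and 0.14 away. The likeness covers 3 group means only.

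The other genes of these pathways were taken from 7 lists of 134 genes in all, of which 97 were in the table. Of the 84 compared in M1 over M0, 10 were at least 2-fold higher (11.9%, against 5.56% of all genes), 7 at least 2-fold lower (8.33%, against 8.77%) and 67 within 2-fold, with a median log2 ratio of 0.10. Of the 85 compared in M2 over M0, 3 were higher and 3 lower (3.53% each, against 2.99% and 3.49%), with a median of -0.03. Of the 87 compared in M2 over M1, 9 were higher (10.3%, against 7.0%) and 11 lower (12.6%, against 5.72%), with a median of -0.04. In M2 over M0, and for the lower genes in M1 over M0, these shares were near those of all genes. The median over all genes was 0.01, 0.02 and -0.003 in these comparisons. The list of purine receptors and release channels alone held 5 of the 10 higher genes in M1 over M0, from 11 compared. It also held 5 of the 11 lower genes in M2 over M1, from 12 compared. The lists were chosen with earlier results of these data known, so the shares were not read as a shift of the pathways.

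The other genes of NAD synthesis and salvage were mostly at similar levels in the groups, as were NAMPT and NADK. Of 11 in the table, 8 could be compared, and 1 was 2-fold apart. That was NMRK1, the kinase of nicotinamide riboside, with 527 normalized counts in M2, 254 in M1 and 557 in M0. Its M1 mean stood 2.19-fold below that of M0 (log2 ratio of -1.13). In M1 over M0, 0 of the 8 were thus higher (against 5.56% of all genes) and 1 lower (12.5%, against 8.77%). In M2 over M1, 1 was higher (12.5%, against 7.0%). Counts this small do not set the list apart. NNT, the mitochondrial transhydrogenase, had 3393 in M2, 3725 in M1 and 3626 in M0. NADSYN1, the last enzyme of the nicotinic acid route that NAPRT opens, had 637 in M2, 523 in M1 and 682 in M0, the same order of groups as NAPRT.

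NAD consumers other than CD38 and BST1 differed in direction. Of 25 compared in M1 over M0, 3 were at least 2-fold higher (12%, against 5.56% of all genes), 2 lower (8.0%, against 8.77%) and 20 within 2-fold, counts too small to set the list apart. PARP14, a mono-ADP-ribosyltransferase of interferon responses, had 2697 in M2, 11086 in M1 and 2639 in M0, which put it 4.20-fold higher in M1 than in M0 and left M2 near M0. PARP12, of the same subfamily, had 2071 in M2, 4244 in M1 and 2011 in M0. ART3, of the surface ADP-ribosyltransferase family, had 28.4 in M2, 110 in M1 and 36.3 in M0. All 3 shared with CD38 a mean highest in M1, but their M2 means, unlike that of CD38, lay within 1.5-fold of M0.

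SARM1, an NAD hydrolase known for axon degeneration, followed the order of ENTPD1 instead. Its mean was 65.3 in M2, 39.0 in M1 and 189 in M0, with log2 ratios of -2.28 in M1 over M0 and -1.53 in M2 over M0. PARP3, a poly-ADP-ribose polymerase family enzyme of DNA repair, had 505 in M2, 238 in M1 and 595 in M0. The sirtuins in the table, NAD-dependent deacylases, were all within 2-fold. SIRT1, for one, had 325 in M2, 331 in M1 and 372 in M0. NUDT9, which cleaves ADP-ribose, had 3140 in M2, 5113 in M1 and 2562 in M0, just under 2-fold higher in M1 than in M0 (log2 ratio of 0.997).

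Beside ENTPD1, the ectoenzymes ENPP2 and ENPP3 were also lower in M1 than in M0. Of 9 compared in M1 over M0, 0 were at least 2-fold higher and 2 lower, against 5.56% and 8.77% of all genes, each of which corresponds to less than 1 gene in 9. ENPP2 (autotaxin), a secreted phosphodiesterase that also makes lysophosphatidic acid, had 11727 in M2, 3736 in M1 and 27025 in M0. Its log2 ratio was -2.85 in M1 over M0 and -1.20 in M2 over M0. ENPP3, which hydrolyzes extracellular nucleotides, had 52.1 in M2, 15.8 in M1 and 103 in M0. The means of ENPP2 and ENPP3, like that of ENTPD1, were highest in M0, but their M2 means lay well above their M1 means. Of the other ENTPD enzymes compared, ENTPD4, ENTPD5, ENTPD6 and ENTPD7, none was 2-fold apart. DPP4, a peptidase that binds ADA at the surface of human cells, was higher in M2 alone, with 97.5 in M2, 19.3 in M1 and 19.3 in M0. ADA2, the secreted deaminase of myeloid cells, had 2082 in M2, 4082 in M1 and 2933 in M0, the same order as CD38.

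In the list of purine salvage and breakdown inside the cell, APRT and SAMHD1 were apart in M1 over M0. Of 18 compared, these 2 were at least 2-fold higher (11.1%, against 5.56% of all genes), 0 were lower (against 8.77%) and 16 were within 2-fold, with a median log2 ratio of 0.17. APRT, which salvages adenine to AMP, had 1277 in M2, 3853 in M1 and 1176 in M0. SAMHD1, a deoxynucleotide hydrolase, had 3366 in M2, 19166 in M1 and 5716 in M0. HPRT1, which salvages the hypoxanthine that PNP releases, had 1979 in M2, 3118 in M1 and 2087 in M0, a log2 ratio of 0.58 in M1 over M0.

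Past PNP, the breakdown enzymes differed between the groups in another way. XDH, xanthine dehydrogenase, which makes uric acid, had 1006 in M2, 2846 in M1 and 3126 in M0, a log2 ratio of -1.64 in M2 over M0. GDA, guanine deaminase, had 210 in M2, 5.91 in M1 and 36.8 in M0, the widest gap between M2 and M1 among the listed genes, with a log2 ratio of 5.15. Its means in M1 and M0 were both under 50.

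**Figure D4:**
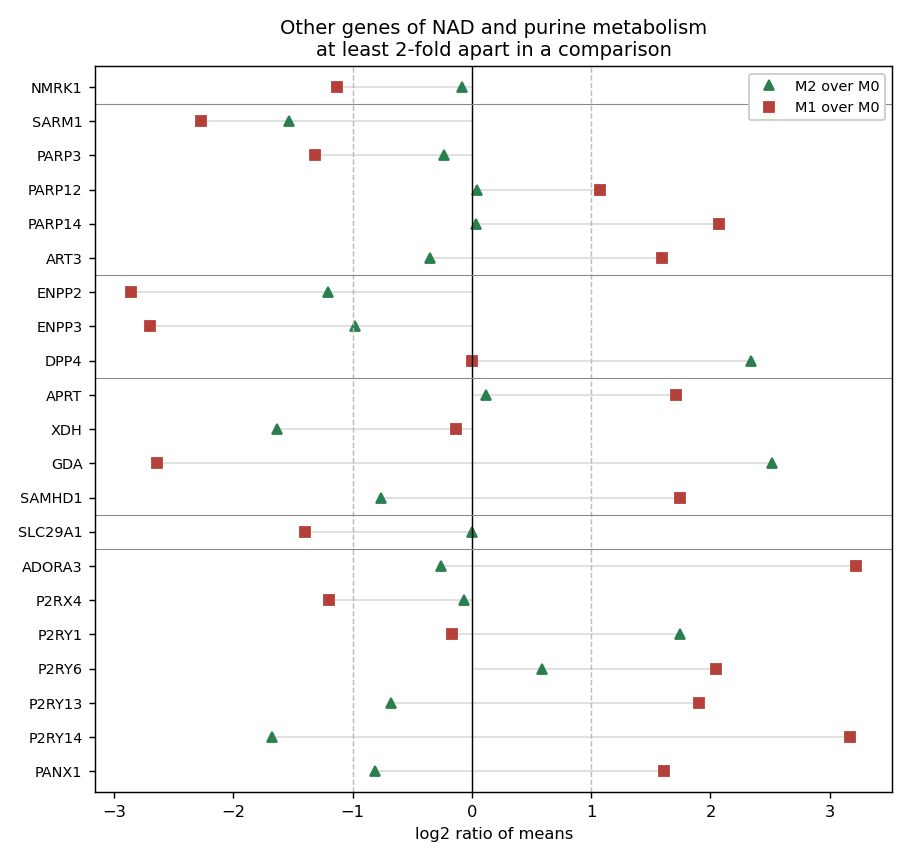
The log2 ratio of the authors' means (horizontal axis) in M2 over M0 (triangles) and M1 over M0 (squares) for the 21 listed genes at least 2-fold apart in any of the 3 comparisons with a higher mean of at least 50, in the order of the lists, which grey lines divide, with dashed lines at 2-fold. ADORA3 and P2RY14 lie furthest right, at 3.22 and 3.17 in M1 over M0, and GDA is the gene whose points lie furthest apart.

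Transport and sensing of adenosine also differed. SLC29A1 (ENT1), the equilibrative transporter that carries adenosine across the plasma membrane, had 2158 normalized counts in M2, 819 in M1 and 2153 in M0, and the M1 mean was 2.63-fold lower than that of M0. SLC29A3 and SLC43A3, the other nucleoside or nucleobase transporters in the table, were within 2-fold. Among adenosine receptors, ADORA3 had 104 in M2, 1164 in M1 and 125 in M0, which put it 9.33-fold higher in M1 than in M0 and 11.1-fold lower in M2 than in M1. ADORA2A, the receptor known for restraining macrophage activation, had 1152 in M2, 1764 in M1 and 1935 in M0, and ADORA1 had 103 in M2, 75.6 in M1 and 89.8 in M0, both within 2-fold in every comparison.

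Receptors of extracellular nucleotides were apart in both directions. Of the 11 genes in the list of purine receptors and release channels compared in M1 over M0, adenosine receptors included, 5 were at least 2-fold higher (45.5%, against 5.56% of all genes) and 1 lower (9.09%, against 8.77%). The list also holds receptors of UDP and UDP-sugars. It is short and was chosen with earlier results of these data known, so these shares were not read as a trait of the list. P2RY14, a receptor of UDP-sugars, had 13.03 in M2, 374 in M1 and 41.5 in M0. P2RY6, the receptor of UDP, had 820 in M2, 2252 in M1 and 544 in M0, and P2RY13, a receptor of ADP, had 36.7 in M2, 220 in M1 and 58.8 in M0. PANX1, a channel that releases ATP, had 1065 in M2, 5700 in M1 and 1870 in M0. The means of P2RY14, P2RY13 and PANX1, like that of CD38, were above rest in M1 and below it in M2. P2RX4, an ATP-gated channel, was the 1 lower gene, with 7343 in M2, 3360 in M1 and 7703 in M0. P2RY1, a receptor of ADP, was the gene of the list that was 2-fold higher in M2 than in M0, with 119 in M2, 31.6 in M1 and 35.5 in M0.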

How the data were processed

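RNA of 9 cultures, 3 per group, was sequenced. Per the labels and the study's methods, the authors worked in Partek Flow (version 7.0): filtered reads were mapped by STAR (version 2.7.3a) onto the CanFam3.1 assembly, HTSeq gave counts per gene, and DESeq2 normalized these. Whether counting used strand is not given in the sources used here. The deposited signal values used here are the authors' least squares means of normalized counts, 1 per group, for 12696 protein coding genes. Columns of the authors' own comparisons (log2 ratios, fold changes, p-values and FDR) were not used. Pooled means allow no error, interval or test, so the levels, their ratios and counts past a threshold are descriptions.

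Ratios were taken between group means with no pseudocount. A gene was compared when the higher of its 2 means was at least 50 and counted as apart at 2-fold. Alternatives were pseudocounts of 1 and 10, no minimum mean or minimums of 10 and 200, thresholds of 1.5-fold and of 1.5 on the log2 scale, and means rescaled to equal totals or to a median log2 ratio of 0. All members in the table were named, and per list and comparison up to 4 genes furthest apart. PARP12, P2RX4 and PANX1 were named outside this rule in part of their comparisons, and NNT, NADSYN1, SIRT1, NUDT9, the ENTPD enzymes, ADA2, HPRT1, SLC29A3, SLC43A3, ADORA2A, ADORA1, P2RX7, GMPS, ATIC, IMPDH1, MTAP and NMNAT3 as related genes, all after their values were seen. Members and lists were chosen with earlier results of these data known. The computation was tested on simulated data. A few genes were left out of the lists and are not reported here. Python 3.11.15, numpy 2.4.6, pandas 2.3.3 and matplotlib 3.10.9 were used.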

Additional observations from a re-analysis of the deposited data

How the results depend on the processing

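No paired analysis was possible because the values used are group means, so that neither the dogs nor single samples could be separated, and leaving out a replicate could not be run for the same reason. Shares over all genes are given here for the main setting only. The counts at other settings therefore show how the totals depend on the setting, and do not set the genes apart from the background. With a threshold of 1.5-fold, 5 of the 9 genes were apart in M1 over M0 and 2 in M2 over M0. Of the genes in the pathway lists, 27 were then apart in M1 over M0, 16 in M2 over M0 and 34 in M2 over M1. With a threshold of 1.5 on the log2 scale, 1 of the 9 genes was apart in M1 over M0 (ENTPD1) and 1 in M2 over M1 (CD38). With a minimum mean of 200, 3 pathway genes were apart in M2 over M0. The other totals of genes apart stayed within 1.5 times, but some counts by direction did not. With no minimum mean, 11 pathway genes were lower in M1 over M0 and 11 higher, and 6 were lower in M2 over M0, the same numbers of lower genes as with a minimum of 10. With a minimum of 200, the 3 genes in M2 over M0 were 1 higher and 2 lower, and 9 were higher against 5 lower in M1 over M0 and 6 against 10 in M2 over M1. Past 1.5 on the log2 scale, 9 were higher against 3 lower in M1 over M0, 3 against 2 in M2 over M0 and 5 against 9 in M2 over M1. Pseudocounts and rescaling moved no log2 ratio of the 9 genes by more than 0.07, and the sign changed only for ADA in M2 over M0, under both rescalings. The means carry no spread, so whether a difference exceeds the spread between samples, from that of ADA to that of ENTPD1, cannot be judged from these values.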

Other observations

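Of the enzymes that build purines anew, 10 were compared and 0 were at least 2-fold apart in any of the 3 comparisons, a count that says little of the list since most of all genes were within 2-fold, with a median log2 ratio of 0.26 in M1 over M0 and 0.12 in M2 over M0. GMPS, which makes GMP, had 1384 normalized counts in M2, 2363 in M1 and 1334 in M0. ATIC, which closes the purine ring, had 1112 in M2, 878 in M1 and 605 in M0. IMPDH1, which turns IMP toward guanine nucleotides, had 1617 in M2, 1673 in M1 and 2377 in M0, lower in both polarized groups by less than 2-fold. MTAP, which salvages adenine from polyamine synthesis and feeds APRT, had 1136 in M2, 1078 in M1 and 613 in M0.

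Among genes with a mean under 50 in every group, NMNAT3, a mitochondrial enzyme of NAD synthesis, had 16.9 in M2, 3.63 in M1 and 38.4 in M0, an order like that of NMRK1 and NAPRT. P2RX7, the ATP-gated channel of inflammasome activation, was well above that minimum and had 697 in M2, 1066 in M1 and 731 in M0.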
